A study of Arabidopsis thaliana with 6 samples.

Results

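The genes examined here are those of the mitochondrial genome of Arabidopsis thaliana, measured in wild-type seedlings and in a line with reduced SPT4. A probe set, the group of array probes that gives 1 signal, was counted as a member when its only annotated gene lies in the mitochondrial genome, judged by locus or by symbol (nad, cox, cob, atp, ccm, matR or a numbered open reading frame). The rule used no measured value. It found 23 of 22746 plant probe sets, and they read 16 of the 13355 genes that have a single-gene probe set. Of these, 7 read nad1, 2 read nad5, and nad2, nad4, nad4L, nad6, nad7, nad9, cox1, cox2, ccmB, ccmFC, ccmFN1, ccmFN2, matR and mttB have 1 each. The annotation lists mttB under an older name without a number (orfX), and it was included because RefSeq places it in the mitochondrial genome. A further 12 probe sets are listed for a mitochondrial gene together with another gene. Of the 32 named protein-coding mitochondrial genes in RefSeq, 11 were reached only in that way, and atp4, atp6, atp8, ccmC and nad3 were not analysed here. All 6 probe sets for ribosomal protein genes belong to the shared kind. No open reading frame of unknown function was listed for a probe set in the annotation used, so that class was not analysed here.

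Signals came from ATH1 arrays, single-colour oligonucleotide arrays, with 1 array for each of 6 samples. The 3 wild-type samples were Columbia-0 plants, and the 3 SPT4-R3 samples were plants of 1 line in the same background, labelled as line 3 of an RNA interference construct against SPT4 and also as a mutant. SPT4 forms, with SPT5, a factor that travels with RNA polymerase II in the nucleus. Both groups were aerial parts of 10-day-old seedlings on solid MS medium, stratified for 2 days, kept in 16 h light and 8 h dark and taken 2 h after the light came on. The promoter of the construct is not given in the labels, which call the samples biological replicates without naming separate sowings, so the p-values below measure the spread between these samples only.

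Plant mitochondria keep a small genome that encodes some subunits of the respiratory chain, part of the machinery that attaches haem to cytochrome c, a maturase, a transport protein and some ribosomal proteins. It is transcribed by phage-type RNA polymerases encoded in the nucleus and not by RNA polymerase II. Its transcripts pass through splicing, in nad1, nad2 and nad5 also between separately transcribed pieces (trans-splicing), and through C-to-U editing and end trimming, steps that depend on nuclear-encoded RNA-binding proteins. Most subunits of complexes I, III, IV and ATP synthase, and in Arabidopsis all of complex II, are nuclear genes, so each of the mixed complexes draws on both genomes. In plant mitochondria a poly(A) tail marks a transcript for decay, and standard labelling for these arrays starts from an oligo(dT) primer. A signal here can therefore depend on tail state as well as on transcript amount, and the 2 were not told apart.

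SPT4-1 (AT5G08565), an SPT4 gene and the only one looked up here, checks the labels. It read 5.79, 6.05 and 6.03 on wild-type and 5.0, 4.89 and 4.97 on SPT4-R3 arrays, so that its log2 signal fell by 1.0 ± 0.0753 (SE, 3 arrays per genotype, adjusted p = 2.15e-06). Array medians ranged from 6.49 to 6.53. The bioB, bioC and bioD hybridisation controls averaged 9.01 on wild-type and 8.62 on SPT4-R3 arrays. They thus differed by -0.39 (p = 0.1 in a two-sided exact permutation test, which can go no lower here), and the poly-A controls differed by -0.15 (exact permutation p = 0.2). Centring on either set of controls would raise every difference below by the size of its own. The leaf markers LHCB4.1, LHCB4.2 and RCA gave signals from 12.8 to 14.4 and were lower in SPT4-R3 by 0.27 to 1.14 log2. Of the 4 root markers none passed the test. PYK10 read 11.8 on average in both genotypes, while EXPA7, EXPA18 and PRX44 averaged 4.89, 5.15 and 4.23 over the 6 arrays. The labels name aerial parts only, and whether any root tissue was present was not tested.

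For most mitochondrial genes no difference between the genotypes passed the test, and a few stood out in both directions, with nad2 and nad7 lower in SPT4-R3 and ccmFC higher. Two-sided limma tests with Benjamini-Hochberg adjustment over all 22746 probe sets (threshold 0.05) called 3 of the 23 members higher in SPT4-R3, 2 lower and 18 neither way. That is 21.7% called, beside 49.9% of all probe sets (26.4% higher and 23.5% lower). The median difference, SPT4-R3 minus wild type, was 0.01 log2 for the members and 0.00 for all probe sets, and the median absolute difference was 0.10 for the members and 0.18 for all. The arrays of the genotypes did not overlap for 5 of the 23 members (21.7%), beside 55.1% of all probe sets. Signals were mostly low: 20 of the 23 members lay below the median of all probe sets (6.53), and 5 of those 20 were called, beside 31.8% of all probe sets below that median, a background chosen after the values were seen. The 3 brighter members, nad4, cox1 and ccmFN1, were not called.

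**Figure D1:**
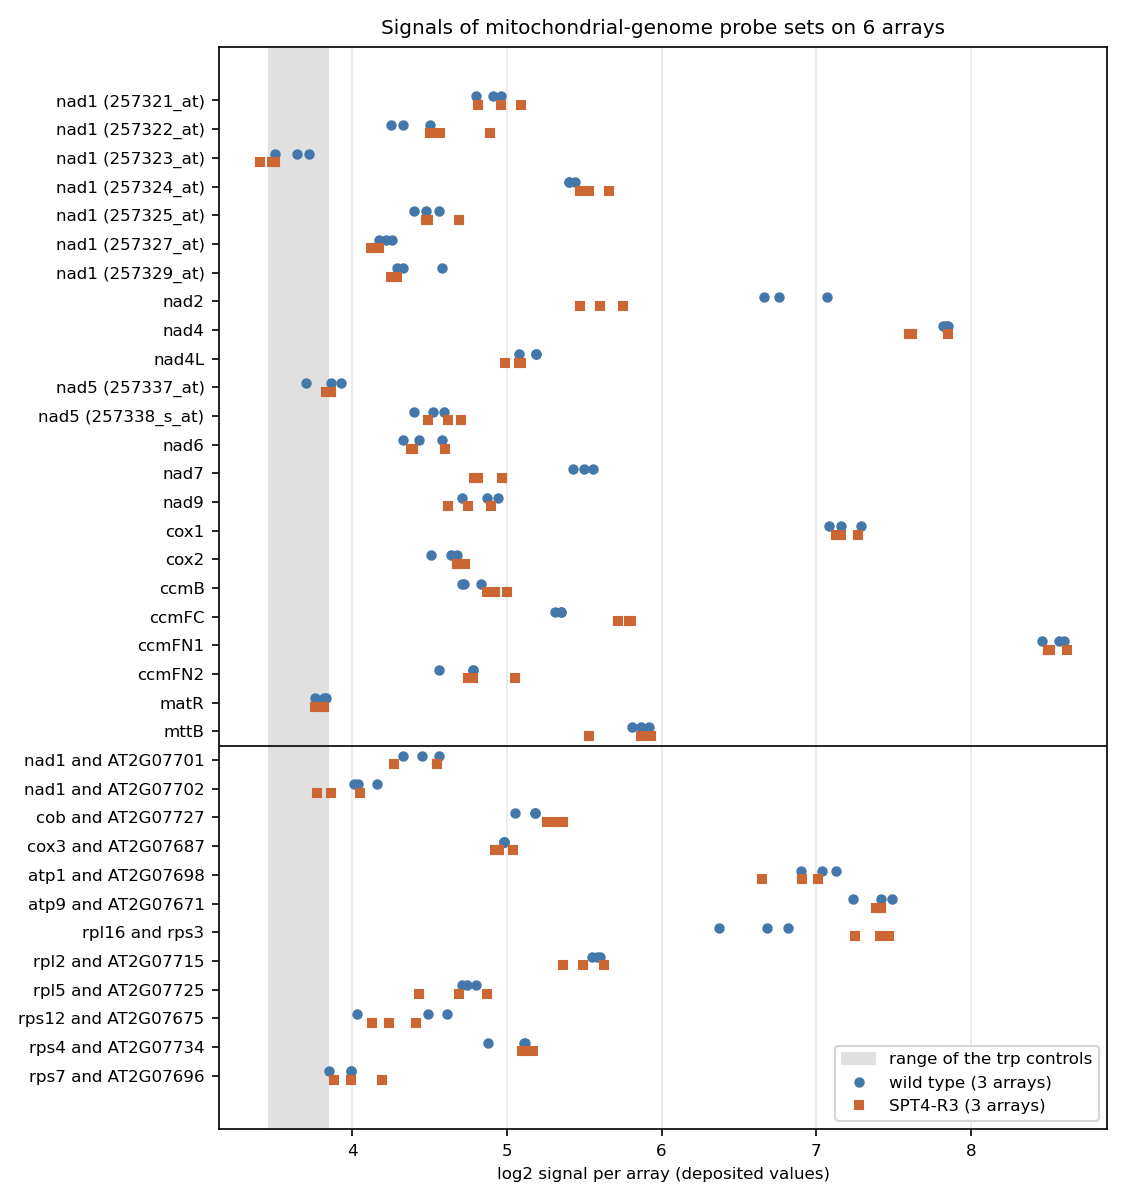
Deposited log2 signal (horizontal axis) of each mitochondrial probe set on each of the 6 arrays, circles for 3 wild-type and squares for 3 SPT4-R3 arrays, with single-gene probe sets above the line and probe sets with several genes below it. The grey band is the range of the trp controls, 3.46 to 3.84; the genotypes are clearly apart for nad2, nad7, ccmFC and the probe set of rpl16 and rps3, and nearly all others lie on top of each other.

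Complex I, which oxidises NADH and pumps protons, held the largest decreases. Its nad genes had 15 probe sets, of which 2 were lower in SPT4-R3, 1 was higher and 12 did not pass. That is 20% called, beside 49.9% of all probe sets.

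The gene nad2 encodes a proton-pumping subunit of the membrane arm and is assembled by trans-splicing. Its probe set (257331_at) read 7.07, 6.66 and 6.76 in wild type, against 5.47, 5.75 and 5.60 in SPT4-R3. All 3 SPT4-R3 arrays lay well below the lowest wild-type array. The signal fell by 1.22 ± 0.107 (SE, 95% interval -1.46 to -0.98) in log2 units (n = 3 per genotype), or 2.33-fold. The adjusted p was 6.12e-06, and with any 1 array left out the difference stayed between -1.31 and -1.10. In whole aerial tissue, fewer cells that carry a transcript and less of it per cell cannot be told apart, here and in the results that follow.

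The gene nad7 encodes a subunit of the peripheral arm, close to where electrons pass to quinone. Its probe set (244925_at) read 5.56, 5.43 and 5.50 in wild type, against 4.81, 4.97 and 4.79 in SPT4-R3. The genotypes did not overlap. The signal fell by 0.64 ± 0.0653 (SE, 95% interval -0.79 to -0.49) in log2 units, or 1.56-fold (adjusted p = 1.92e-05). Against a stricter null hypothesis, a change of at most 0.5 log2 (limma's treat), nad2 was the only mitochondrial probe set still called, and nad7 had an adjusted p of 0.228.

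Of nad4, nad4L, nad5, nad6 and nad9 none passed the test. The one with the highest signal, nad4, a further proton-pumping subunit, read 7.82, 7.84 and 7.85 in wild type, against 7.60, 7.62 and 7.85 in SPT4-R3. Replicates 1 and 2 of SPT4-R3 were below every wild-type array, and replicate 3 was level with them. The difference was -0.15 ± 0.0709 (adjusted p = 0.116), and without SPT4-R3 replicate 3 it was -0.23 with an adjusted p of 0.0124. The membrane-arm subunit nad4L read 5.19, 5.19 and 5.08 in wild type, against 5.09, 5.08 and 4.99 in SPT4-R3, a difference of -0.10 (adjusted p = 0.181). For nad6, also of the membrane arm, the difference was 0.01, and for nad9, of the peripheral arm, it was -0.08. The proton-pumping subunit nad5, whose transcript is trans-spliced like that of nad2, differed by 0.02 and 0.10 in its 2 probe sets.

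The 7 probe sets of nad1, a membrane-arm subunit beside the quinone site and the third trans-spliced gene, did not move together. Their differences ran from -0.16 to 0.29, with 4 above and 3 below 0. Which part of nad1 each of them reads is unknown here. The probe set called higher, 257322_at, read 4.33, 4.25 and 4.5 in wild type, against 4.57, 4.5 and 4.89 in SPT4-R3, so that the genotypes touched at 4.5. Its difference was 0.29 ± 0.103 (adjusted p = 0.0372). The call was lost without wild-type replicate 1 (0.28, adjusted p = 0.1001) or 2 (0.24, 0.131), and without replicate 1 (0.34, 0.0572) or 3 (0.18, 0.128) of SPT4-R3. The nad1 probe set with the highest signal, 257324_at, read 5.40, 5.40 and 5.44 in wild type, against 5.53, 5.66 and 5.47 in SPT4-R3. Its genotypes did not overlap, and its difference of 0.14 did not pass (adjusted p = 0.0833). The dimmest, 257323_at, differed by -0.16 (adjusted p = 0.0717) with 5 of 6 arrays inside the range of the trp controls, bacterial sequences whose 3 probe sets gave 3.46 to 3.84. It was called lower without wild-type replicate 1 (-0.22, adjusted p = 0.0162), after centring on the array median (adjusted p = 0.0435) and with trend and robust settings (adjusted p = 0.0427). The remaining 4, 257321_at, 257325_at, 257327_at and 257329_at, differed by 0.06, 0.07, -0.08 and -0.13, and 2 more probe sets listed for nad1 together with AT2G07701 or AT2G07702 differed by 0.01 and -0.18 (adjusted p = 0.938 and 0.0861). The latter was called without SPT4-R3 replicate 2 (-0.26, adjusted p = 0.0191).

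Complex IV passes electrons to oxygen, and its catalytic subunits are mitochondrial. The core subunit cox1 (257333_at) read 7.08, 7.16 and 7.29 in wild type, against 7.16, 7.13 and 7.27 in SPT4-R3. The values interleaved, and the difference of 0.01 ± 0.0681 had a 95% interval from -0.14 to 0.16. The cox2 subunit, which takes electrons from cytochrome c, read 4.51, 4.64 and 4.68 in wild type, against 4.73, 4.68 and 4.68 in SPT4-R3. Its difference was 0.09 (95% interval -0.05 to 0.22, adjusted p = 0.261). For both genes the interval leaves out a fall of the size seen for nad7. The probe set listed for cox3 and AT2G07687 differed by -0.01.

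Complex III and ATP synthase were reached only through shared probe sets. The one listed for cob, the cytochrome b of complex III, and AT2G07727 read 5.05, 5.18 and 5.18 in wild type, against 5.32, 5.36 and 5.26 in SPT4-R3. Every SPT4-R3 array was above every wild-type array, and the difference of 0.18 ± 0.0588 passed with an adjusted p of 0.0301. The call was lost without replicate 1 (0.17, adjusted p = 0.0738) or 2 (0.15, 0.102) of SPT4-R3 and without replicate 1 of wild type (0.13, 0.0865), and in the fit with trend and robust settings (adjusted p = 0.0697). For ATP synthase, the probe set listed for atp9, the membrane ring subunit, and AT2G07671 read 7.24, 7.42 and 7.49 in wild type, against 7.42, 7.39 and 7.42 in SPT4-R3. That is a difference of 0.03 (adjusted p = 0.778). The probe set of atp1, the alpha subunit, and AT2G07698 differed by -0.17 (adjusted p = 0.176).

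**Figure D2:**
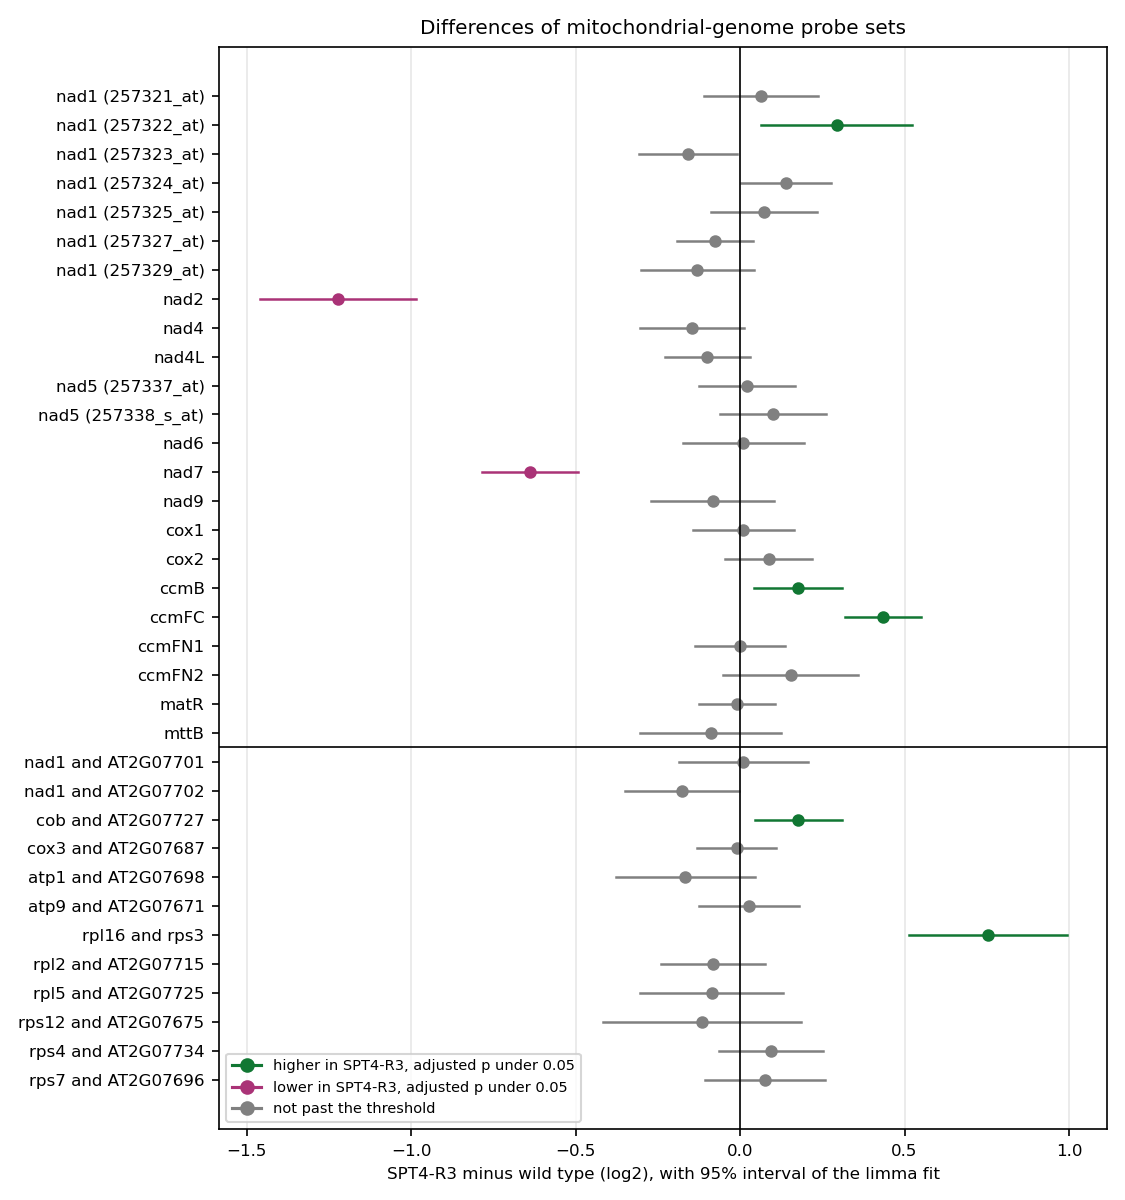
Difference between SPT4-R3 and wild type in log2 units (horizontal axis) for each mitochondrial probe set, with the 95% interval of the limma fit and colour by call. The intervals of nad2 (-1.46 to -0.98) and nad7 (-0.79 to -0.49) lie well below 0, that of rpl16 and rps3 lies well above it, and most others include 0.

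The ccm genes encode parts of the system that attaches haem to c-type cytochromes, and 2 of the 4 measured were higher in SPT4-R3, beside 26.4% of all probe sets called higher. With so few genes, nothing particular to the ccm genes is read from that count. The products of ccmFC, ccmFN1 and ccmFN2 belong to the haem ligation complex. The probe set of ccmFC (244951_s_at) read 5.31, 5.35 and 5.35 in wild type, against 5.79, 5.72 and 5.80 in SPT4-R3. The genotypes were well apart. The rise was 0.43 ± 0.0517 (SE, 95% interval 0.32 to 0.55), 1.35-fold, with an adjusted p of 5.9e-05. The brightest member of all, ccmFN1, read 8.46, 8.57 and 8.60 in wild type, against 8.51, 8.50 and 8.62 in SPT4-R3, a difference of 0.00 (95% interval -0.14 to 0.14). For ccmFN2 the difference was 0.15 (adjusted p = 0.196). The gene ccmB encodes a membrane part of a transporter-like complex in the same pathway. It read 4.71, 4.72 and 4.83 in wild type, against 5.0, 4.92 and 4.87 in SPT4-R3, without overlap, and was higher by 0.18 ± 0.0595 (adjusted p = 0.0316). Its call was lost without wild-type replicate 1 (0.16, adjusted p = 0.0836) or 2 (0.16, 0.0862), and without replicate 1 (0.14, 0.107) or 2 (0.18, 0.0707) of SPT4-R3, and in the fit with trend and robust settings (adjusted p = 0.0633).

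Neither of the remaining members passed. The gene matR, which lies in an intron of nad1 and encodes a maturase that acts on intron splicing, read 3.82, 3.76 and 3.83 in wild type, against 3.76, 3.80 and 3.82 in SPT4-R3. All 6 values lay inside the trp control range, the only member for which this was so, and no difference was detectable at that signal. The gene mttB, which encodes a component of a twin-arginine protein transport system, read 5.92, 5.87 and 5.81 in wild type, against 5.93, 5.53 and 5.87 in SPT4-R3. The difference of -0.09 (95% interval -0.30 to 0.12) came with 1 low SPT4-R3 array.

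Among the 6 probe sets for ribosomal protein genes, 1 was higher and none was lower in SPT4-R3. Of all probe sets, 26.4% were called higher and 23.5% lower. The ribosomal one called higher (244944_s_at) is listed for rpl16 and rps3, both mitochondrial, which encode proteins of the large and the small ribosomal subunit. It read 6.37, 6.82 and 6.68 in wild type, against 7.47, 7.25 and 7.41 in SPT4-R3. The lowest SPT4-R3 array was above the highest wild-type array. The rise was 0.75 ± 0.107 (SE, 95% interval 0.51 to 0.99), 1.69-fold, with an adjusted p of 0.000205, and it stayed between 0.63 and 0.85 with any 1 array left out. Against a change of at most 0.5 log2 it did not pass (adjusted p = 0.163). The other 5, each shared with a chromosome 2 locus, differed by -0.08 for rpl2, -0.09 for rpl5, 0.09 for rps4, 0.08 for rps7 and -0.12 for rps12. Of these, rps12 was called lower without wild-type replicate 1 (-0.29, adjusted p = 0.0254).

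The respiratory, assembly and ribosomal groups had similar medians. It was 0.01 over the 17 probe sets of respiratory subunits, 0.08 over the 6 of the ccm genes, matR and mttB, and 0.00 over the 6 of ribosomal genes. The calls were 1 higher and 2 lower among respiratory subunits and 2 higher and 0 lower among the ccm genes, matR and mttB. That is 17.6% and 33.3% called, beside 49.9% of all probe sets.

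Among the measured neighbours of nad2, nad7, ccmFC and the pair rps3 and rpl16, only ccmB was called. In the order of the RefSeq assembly, nad2 is listed between rps4, read by a shared probe set, and nad6, whose probe sets differed by 0.09 and 0.01 beside the -1.22 of nad2. The pieces of nad1, nad2 and nad5 lie in several places, so the order says little for those genes. The neighbours of nad7 are nad5, with 0.02 and 0.10, and atp8, which was not analysed here. The low signals of nad5 limit the fall that could be seen, so whether it fell with nad7 cannot be decided. The gene ccmFC (0.43) lies between rpl5 (-0.09, shared probe set) and nad4 (-0.15). The pair rps3 and rpl16 (0.75) lies between ccmB (0.18), which was called higher too, and nad9 (-0.08), which was not called.

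A copy of much of the mitochondrial genome is inserted in chromosome 2 of Columbia-0, which is where the loci shared by 11 of the 12 probe sets with several genes lie. Signals of those probe sets cannot be assigned to either genome. Whether probes of the single-gene members also match the inserted copy was not tested. Some members, among them ccmFC (244951_s_at), have shared-probe identifiers, which end in _s_at. Without such identifiers 18 members remained, of which 2 were higher and 2 lower, and ccmFC was no longer among them. Between AT2G07671 and AT2G07734, a stretch chosen after the annotation had been seen, 20 further probe sets are listed for a single chromosome 2 locus. Of these, 1 was higher (AT2G07708, by 0.32, adjusted p = 0.0239), 1 was lower (AT2G07695, difference -0.23, adjusted p = 0.0134) and 18 did not pass. Most of the 20, both called ones included, have shared-probe identifiers. Whether they also read mitochondrial transcripts was not tested, so they cannot be taken as a purely nuclear group. The 20 probe sets had a median difference of -0.02, and 10% of them were called, beside 49.9% of all probe sets. Their signals were low, from 3.37 to 6.70, and 31.8% of all probe sets below the median were called.

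In the plastid, the other organelle with a genome, most measured genes were lower in SPT4-R3. Of 69 single-gene plastid probe sets, 41 were lower in SPT4-R3, 0 higher and 28 not past the threshold, with a median difference of -0.34. That is 59.4% called, beside 49.9% of all probe sets and 21.7% of the mitochondrial members. All the plastid calls were lower, beside 23.5% of all probe sets called lower. The genotypes did not overlap for 50.7% of the plastid probe sets, beside 55.1% of all. The difference between the organelles as such was not tested. The photosystem II genes psbB and psbN were lower, with differences of -0.95 and -0.80 (adjusted p = 0.000106 and 0.000115). So were the ribosomal protein gene rpl36 at -0.84 (adjusted p = 4.73e-05) and ndhJ, of the plastid NADH dehydrogenase-like complex, at -0.54 (adjusted p = 2.99e-05). The 3 measured leaf markers, nuclear genes of photosynthesis, were lower too, and their part in this was not tested. Centring on bioB, bioC and bioD turned the plastid majority to 22 higher and 10 lower, while nad2 (-0.83) and nad7 (-0.25) stayed lower.

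**Figure D3:**
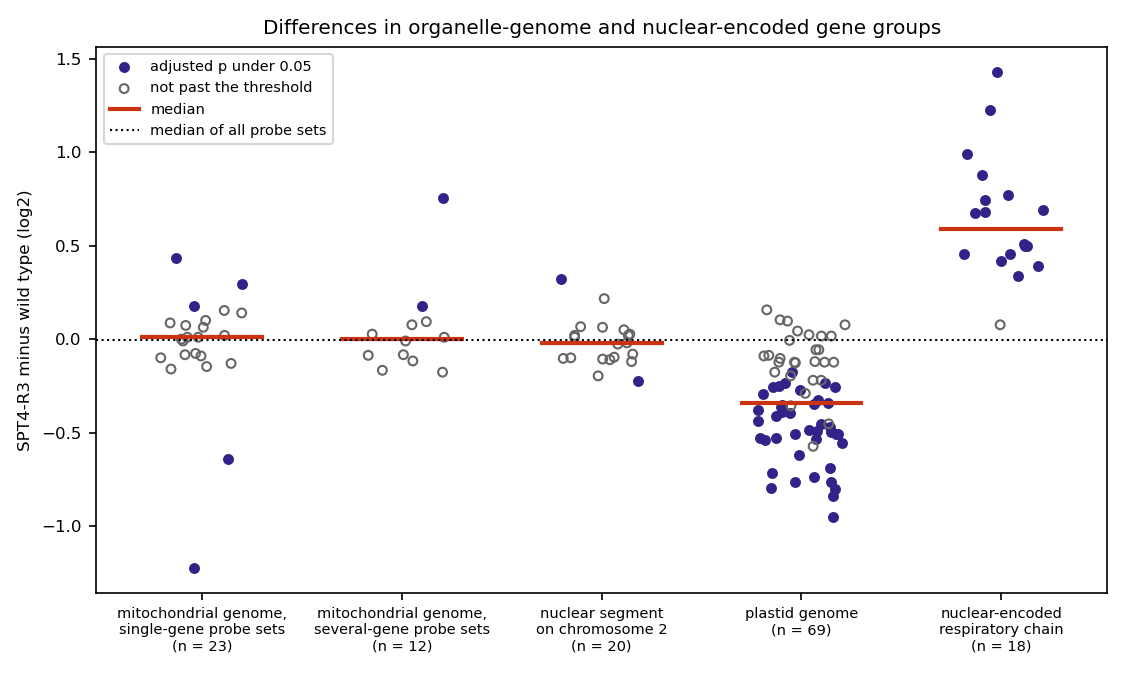
Difference between SPT4-R3 and wild type in log2 units (vertical axis) for single probe sets of 5 gene groups, filled where the adjusted p was under 0.05, with a bar at each median and a dotted line at the median of all probe sets. The mitochondrial medians sit at 0.01 and 0.00, the plastid median at -0.34 and the median of nuclear-encoded respiratory genes at 0.59. Whether probe sets of the chromosome 2 segment also read mitochondrial transcripts was not tested.

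Most of the listed nuclear genes of the respiratory chain were higher in SPT4-R3. A list of 36 nuclear genes for the respiratory chain was drawn from general knowledge, but with earlier results of these data known. Of the 36, 18 had a single-gene probe set. Of these, 17 rose and 1 did not pass, with a median difference of 0.59, beside 26.4% of all probe sets called higher. With complex II, which has no mitochondrial gene, left out, 14 of 15 were called higher, with a median of 0.50. The genotypes did not overlap for any of the 18, beside 55.1% of all probe sets. These 18 were bright, with signals from 8.54 to 12.24, while 20 of the 23 mitochondrial members lay below the median of all probe sets (6.53). Brightness matters for calls: below that median 31.8% of all probe sets were called, beside 49.9% of all. The share called above that median is therefore higher than 49.9%, and no background of equally bright probe sets was drawn up. The list is not complete: SDH1-2, a second gene for the complex II flavoprotein, was not on it. It read 4.41, 4.33 and 4.17 in wild type, against 4.21, 4.02 and 4.1 in SPT4-R3, with overlapping genotypes and a difference of -0.19 that did not pass (adjusted p = 0.0561). These genes and the mitochondrial members were measured on the same 6 arrays, and the difference between the 2 groups as such was not tested.

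In complex I the 4 listed nuclear genes that were measured all rose, by 0.42 to 0.50 log2, with FRO1, an iron-sulphur subunit gene, at 0.50 (95% interval 0.37 to 0.62). Beside them, the 15 mitochondrial complex I probe sets had a median of -0.08 and a highest value of 0.29. In complex IV the 3 listed nuclear genes that were measured rose by 0.75 to 1.43, beside 0.01 for cox1 and 0.09 for cox2. The locus AT3G15640 read 8.60, 8.54 and 8.58 in wild type, against 9.92, 10.07 and 10.02 in SPT4-R3, a 2.69-fold rise (adjusted p = 2.96e-08). The lowest end of the 95% intervals of these 3 genes was 0.61, above the upper ends for cox1 (0.16) and cox2 (0.22).

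Complex II, with no mitochondrial gene in Arabidopsis, had 3 listed genes measured, all higher, beside SDH1-2, which did not pass. The gene SDH2-1, for the iron-sulphur subunit, read 9.25, 9.23 and 9.23 in wild type, against 10.49, 10.42 and 10.48 in SPT4-R3. It rose by 1.23 ± 0.0505 (adjusted p = 3.56e-08), while a second, much dimmer probe set of SDH2-1 differed by 0.01. The flavoprotein gene SDH1-1 rose by 0.67 (adjusted p = 2.21e-06). In complex III and cytochrome c, 5 of 6 rose, among them MPPBETA, for a core protein that is also the processing peptidase, by 0.99 (adjusted p = 2.82e-07). The locus AT5G40810 was the exception at 0.08 (adjusted p = 0.242). Both listed ATP synthase genes that were measured rose, AT1G51650 by 0.69 and AT5G47030 by 0.34.

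**Figure D4:**
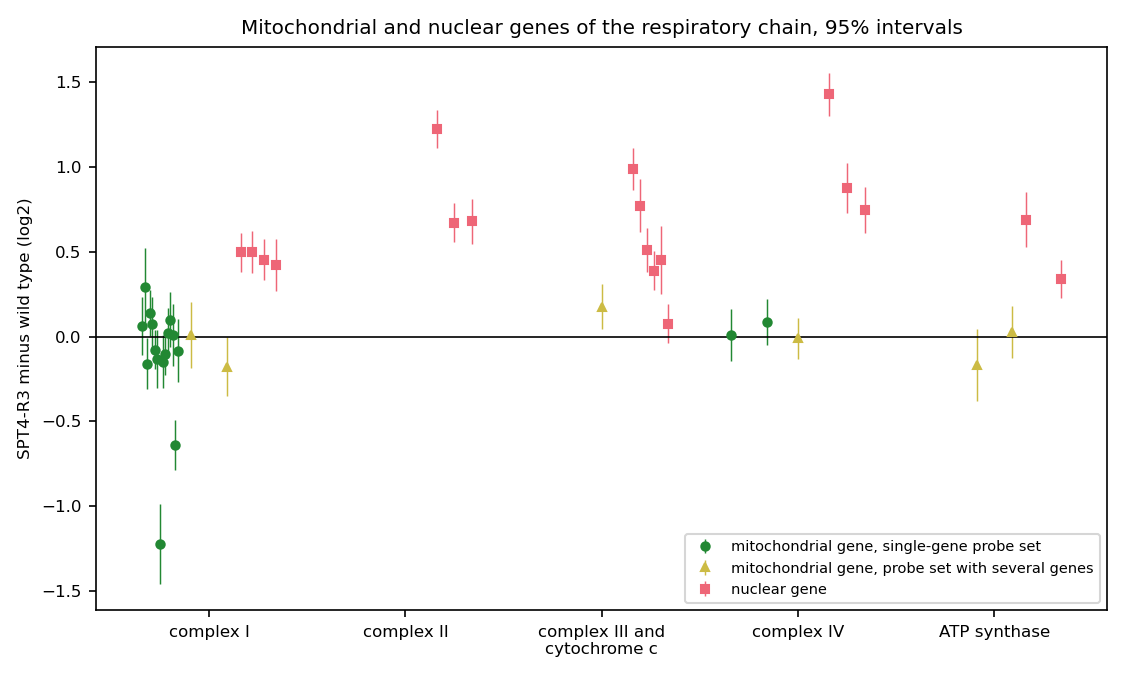
Difference between SPT4-R3 and wild type in log2 units (vertical axis, 95% intervals of the limma fit) by respiratory complex, with circles for mitochondrial single-gene probe sets, triangles for mitochondrial probe sets with several genes and squares for nuclear genes. In complexes I and IV every nuclear gene shown lies above every mitochondrial probe set; nuclear genes of complex I lie between 0.42 and 0.50.

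Alternative respiration and mitochondrial stress genes had 4 of 10 listed members measured, with 1 higher, 1 lower and 2 not past the threshold. That is 50% called, like the 49.9% of all probe sets. The locus AT2G21640 rose by 1.42 (adjusted p = 2.98e-08). The gene NDB2, for an external NADH dehydrogenase that bypasses complex I, was lower, with a difference of -0.33 (adjusted p = 0.00181). Centring on bioB, bioC and bioD turned it to 0.06. The bypass dehydrogenase genes NDC1 and NDB4 differed by -0.14 and -0.08 and did not pass.

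Nuclear factors for mitochondrial gene expression had 6 of 17 listed members measured, and 2 were higher. That is 33.3%, near the 26.4% of all probe sets called higher, so nothing particular to these factors is read from the count. The locus AT5G46920 read 6.88, 7.37 and 7.30 in wild type, against 8.12, 8.09 and 8.04 in SPT4-R3. It rose by 0.90 ± 0.111 (adjusted p = 7.4e-05), 1.87-fold. The locus AT5G14580 rose by 0.28 (adjusted p = 0.0141), a call lost without SPT4-R3 replicate 1 (0.26, adjusted p = 0.0584). OTP43, needed for the splicing of a nad1 intron, differed by -0.07, and OSB1, a DNA-binding protein of the organelle, by 0.06. The loci AT1G74350 and AT5G15700 differed by -0.06 and 0.02. Of these last 4 genes none passed the test.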

How the data were processed

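The authors deposited 1 value per probe set and array, read as log2 signals from their range. Per the submitters' processing notes the software was Affymetrix Expression Console; the sources used here do not give its algorithm, background correction or normalization. RNA was labelled by the standard Affymetrix procedure, per the labels' protocols. Of 22810 probe sets, 64 array controls were left out. The platform annotation gave 1 gene for 13513, several for 503 and none for 8730. Symbols were updated with RefSeq's genes (TAIR10.1), which also gave mitochondrial names, synonyms and gene order; 13459 of the 13513 matched. No sequences or coordinates are shown.

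The 6 arrays formed 2 groups by genotype. limma 3.58.1 in R 4.3.3 (lmFit, eBayes) was fitted to all 22746 probe sets without a filter, with Benjamini-Hochberg adjustment over all of them. SEs and intervals come from that fit, and the number of arrays limits the precision. On simulated arrays of 22746 probe sets it found 10 of 50 changes of 0.25 log2, 40 of 50 of 0.5, 50 of 50 of 1 and 50 of 50 of 2, with 5 false calls. Only those 50 probe sets per size were changed, while 49.9% of all were called in the data. The adjustment is stricter with so few changes, so these rates do not carry over to the data.

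The members and gene lists were chosen with earlier results of these data known. Every member is named. Values of each array are given for the brightest member of each class and the 4 largest called changes, with some others chosen after their values were seen. In comparison lists up to 4 called genes with the smallest p are named, and others named there were also chosen after their values were seen. A gene with several probe sets in those lists was represented by the brightest. The alternatives tried were centring on the array median or on array controls, quantile normalization, removal of the dimmest 30% of probe sets, trend and robust settings, treat at 0.5 log2, removal of shared-probe identifiers, inclusion of probe sets with several genes, the replicate number as a block and each array left out. Exact permutation tests over the 6 arrays served for the array controls.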

Additional observations from a re-analysis of the deposited data

How the results depend on the processing

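Centring on bioB, bioC and bioD adds 0.39 to every difference. It gave 17406 probe sets higher and 1589 lower, 21 members higher (median 0.403) with nad2 and nad7 still lower, 15 respiratory and 6 ribosomal probe sets higher, 22 plastid probe sets higher and 10 lower, 3 alternative respiration genes higher and 0 lower, and 6 expression factors higher. It turned the sign of nad4L (0.293), matR (0.383), mttB (0.303), nad4 (0.247), nad9 (0.31), nad1 in 257323_at (0.233), 257327_at (0.317) and 257329_at (0.263), rps12 (0.277), cox3 (0.383), atp1 (0.227), rpl2 (0.31), rpl5 (0.307), nad1 with AT2G07702 (0.217) and NDB2 (0.06). Centring on the poly-A controls gave 2478 probe sets lower, 5 members (median 0.159) and 2 respiratory probe sets higher, 1 plastid probe set higher and 26 lower, and 0 alternative respiration genes lower. Testing against 0.5 log2 left 1200 probe sets higher and 1222 lower, 0 members higher and 1 lower, 0 respiratory probe sets higher and 1 lower, 0 ribosomal higher, 2 plastid lower, 7 nuclear respiratory genes higher, 0 alternative respiration genes lower and 1 expression factor higher. With probe sets of several genes included, 5 members and 2 respiratory probe sets were higher. Without the dimmest 30%, 13 members remained, 0 respiratory probe sets were higher and 1 plastid probe set was; 1 plastid probe set was higher with trend and robust settings and 3 after quantile normalization. No ribosomal probe set remained without shared-probe identifiers. With 1 array left out, 5326 to 5722 probe sets were higher and 4633 to 5060 lower, 1 to 3 members higher and 2 to 3 lower (median -0.04 to 0.03), 0 to 1 respiratory higher and 2 to 3 lower, 1 ribosomal higher and 0 to 1 lower, 0 to 1 plastid higher and 28 to 50 lower, 17 nuclear respiratory higher, 1 to 3 alternative respiration lower and 1 to 2 expression factors higher. Same-numbered arrays deviated from their genotype means with correlations of -0.240, -0.126 and -0.0645. The labels do not say whether same-numbered samples were handled together. These correlations cannot decide it, because deviations from a mean of 3 arrays depend on each other. With the replicate number as a block 2 members were higher and 2 lower; the calls of ccmB (adjusted p = 0.0685) and of cob with AT2G07727 (adjusted p = 0.0557) were lost, and no other named result changed its call. The causes of these shifts were not tested.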

Other observations

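Other nuclear genes for mitochondrial proteins, named here after their values were seen, did not all follow the respiratory subunits. Of the NAD-dependent isocitrate dehydrogenase genes of the citric acid cycle, IDH-V rose by 0.73 (adjusted p = 2.02e-06) and IDH-VI by 0.61 (adjusted p = 4.11e-05), while IDH-III differed by -0.10 and IDH-IV by 0.06 and neither passed the limma test. MAB1, for a pyruvate dehydrogenase subunit, rose by 0.41 (adjusted p = 0.000243), and FDH, for formate dehydrogenase, rose by 0.22 (adjusted p = 0.0056). CCMH, a nuclear gene of the cytochrome c maturation pathway that ccmFC and ccmB belong to, differed by -0.13 (adjusted p = 0.149). OTP87, known for editing of nad7 and atp1 transcripts, rose by 0.48 (adjusted p = 0.00409), and MEF8S, an RNA editing factor, rose by 0.40 (adjusted p = 0.00039).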
